A study of Rattus norvegicus with 6 samples.

Results

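The AMPA and kainate receptors are the fast glutamate-gated ion channels of the brain other than the NMDA receptor. Their subunits are encoded by the 4 genes Gria1 to Gria4 (AMPA) and the 5 genes Grik1 to Grik5 (kainate). The subunits were followed on 16 probe sets out of 8799 on the array, each of which the platform annotation assigns to exactly 1 of these 9 genes. Gria1 and Gria4 had 3 probe sets each, Gria2, Gria3 and Grik4 had 2 each, and the other subunits had 1 each. RNA came from the whole hippocampus of rats of the Syracuse High Avoidance (SHA) line and of the Syracuse Low Avoidance (SLA) line. Rats of the first line readily learn to avoid a signalled shock by crossing a box, and those of the second do so poorly. All rats of both lines had gone through avoidance testing and were killed 2 weeks later, so no group was untested. Each line was measured in 3 pools of 3 rats with 1 array per pool, so a replicate is a pool (n = 3 in each line); the labels used here give no age or sex. Probe sets with names ending in _s_at can, by the array maker's naming, read more than 1 related transcript.

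AMPA receptors carry most of the fast excitatory current at hippocampal synapses, and changes in their number at the synapse accompany long-term potentiation and depression. They assemble as tetramers, and the Gria2 subunit, whose transcript is edited by the adenosine deaminase encoded by Adarb1, makes the channel nearly impermeable to calcium. Kainate receptors are known in the hippocampus for their role at the synapses of mossy fibres and on interneurons. Grik1, Grik2 and Grik3 encode subunits that can form channels alone, whereas the Grik4 and Grik5 subunits need one of them as a partner.

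No subunit differed between the lines at an adjusted p under 0.05 in limma, and of all 6555 probe sets tested 0% did. Limma is a linear model in which the variance of each probe set is drawn toward that of probe sets of like intensity. Of the 16 probe sets, 14 were bright enough on average to be tested. The fitted difference was above 0 (higher in SHA) for 9 of the 9 AMPA probe sets tested and for 2 of the 5 kainate probe sets tested, where 48.1% of the 6555 probe sets tested lay above 0. The AMPA count depended on the pools used. SLA pool 1 had the lowest of the 6 values for 8 of these 9 probe sets. Without it 4 of 9 lay above 0, against 45.5% of all probe sets tested. Without both pools numbered 1, which was tried only once the values were known, 7 of 9 did, against 49.5%. The differences of smallest p were those of Gria1 on X17184_at, Gria2 on M36419_s_at and Grik2 on Z11548_at. Each of these read higher in the SHA pool than in the SLA pool of the same number in all 3 numbers, as 2 other AMPA probe sets did, yet the pools of the lines overlapped for all of them. No label states that pools of the same number are paired.

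Intensities are on the linear scale that the authors deposited, and differences are given on the log2 scale as SHA minus SLA ± standard error. In the main limma fit, which has no block for pool number, every subunit difference had an adjusted p of 1.00. None had an unadjusted p under 0.05 in that limma fit, against 1.50% of all probe sets tested (98 of 6555). The SHA and SLA pools overlapped for each of the 14 subunit probe sets tested, while they did not overlap for 5.66% of all probe sets tested. In whole tissue, fewer cells that express a subunit and less of its RNA per cell cannot be told apart.

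**Figure D1:**
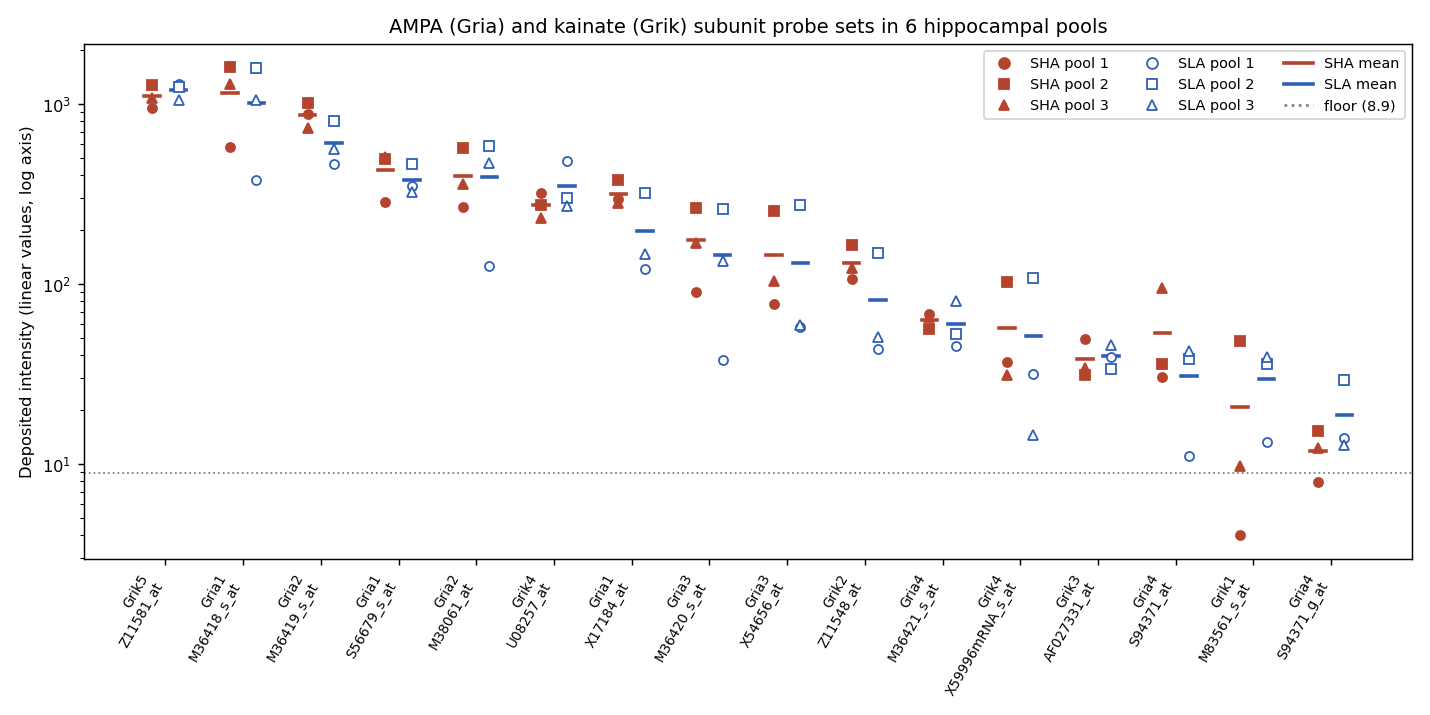
Deposited intensity (log axis) of the 16 subunit probe sets in the 3 SHA pools (filled symbols) and the 3 SLA pools (open symbols), with the symbol giving the pool number and the short lines the means. SHA and SLA pools overlap on every probe set shown, and for many AMPA probe sets the open circle of SLA pool 1 lies lowest, as for Gria3 on M36420_s_at at 37.6.

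Gria1 encodes GluA1, a subunit found in most AMPA receptors of hippocampal pyramidal cells. M36418_s_at, its brightest probe set, read 574.0, 1594.8 and 1296.5 in SHA pools 1, 2 and 3, against 379.2, 1582.2 and 1054.3 in SLA pools 1, 2 and 3. Both pools numbered 1 were low and both numbered 2 were high, so the order of the pools followed the number more than the line. Its difference was 0.30 ± 0.53, or 1.23-fold with a 95% interval of 0.536 to 2.84. Without SLA pool 1 it was -0.29.

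The other probe sets of Gria1 gave differences of unlike size. X17184_at read 296.6, 375.6 and 280.3 in SHA pools and 121.2, 319.1 and 146.0 in SLA pools. SLA pools 1 and 3 lay below every SHA pool, while SLA pool 2 lay above 2 of the 3 SHA pools. The difference of 0.82 ± 0.39 (limma, unadjusted p = 0.062) was the one of smallest p among the subunits, with a fold of 1.77 and a 95% interval of 0.965 to 3.24. S56679_s_at read 285.4, 492.3 and 504.8 in SHA pools and 350.3, 464.7 and 323.9 in SLA pools, and its difference was 0.14 ± 0.30. Here the lowest pool was SHA pool 1. Across the 6 pools the 3 probe sets correlated pairwise at Pearson r between 0.527 and 0.737, given as a description of arrays that share pool numbers.

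Gria2 encodes GluA2, the subunit that sets calcium permeability. M36419_s_at read 873.0, 1010.5 and 734.2 in SHA pools, against 461.5, 804.1 and 563.9 in SLA pools. The highest pools were SHA pools 2 and 1, and only SLA pool 2 reached into the SHA range. The difference was 0.54 ± 0.27 (limma, unadjusted p = 0.074), or 1.46-fold with a 95% interval of 0.957 to 2.22. Between pools of the numbers 1, 2 and 3 it was 0.92, 0.33 and 0.38. The second probe set, M38061_at, read 268.7, 572.0 and 358.4 in SHA pools, against 125.1, 581.0 and 467.1 in SLA pools. On it SLA pools 2 and 3 lay above SHA pool 3, the difference was 0.23 ± 0.55, and without SLA pool 1 it was -0.45. The probe sets of Gria2 thus did not give the same direction in every pool number, with -0.02 and -0.38 in numbers 2 and 3 on M38061_at.

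The balance of Gria1 and Gria2 within an array, taken as the mean log2 intensity over the 3 Gria1 probe sets minus that over the 2 Gria2 probe sets, was -0.41, -0.19 and 0.15 in SHA pools and 0.07, -0.15 and -0.48 in SLA pools. It averaged -0.15 ± 0.28 in SHA and -0.19 ± 0.28 in SLA (SD, n = 3 each). The difference of 0.03 was smaller than the spread between pools (two-sided exact permutation test, p = 0.8, where 3 pools against 3 allow no p under 0.1). Leaving out either pool numbered 3 turned its sign, to -0.11 without that of SHA and likewise -0.11 without that of SLA.

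Gria3 encodes GluA3, which pairs mostly with GluA2. M36420_s_at read 89.6, 265.1 and 168.7 in SHA pools, against 37.6, 260.6 and 133.7 in SLA pools. The 2 arrays of number 2 were highest in each line and those of number 1 lowest, and the highest SLA pool was 6.93-fold the lowest. The difference was 0.54 ± 0.69, and without SLA pool 1 it was -0.23. X54656_at read 76.8, 254.1 and 103.5 in SHA pools, against 57.8, 274.0 and 58.7 in SLA pools. Its difference was 0.37 ± 0.69. Leaving out SHA pool 2 gave -0.13, and leaving out SLA pool 2 gave 1.12. The Gria3 probe sets correlated at r = 0.818 over the 6 pools, the highest value between probe sets of 1 subunit gene.

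Gria4 encodes GluA4, which in the adult hippocampus is found mainly in interneurons. M36421_s_at read 68.0, 55.8 and 65.2 in SHA pools, against 45.3, 52.6 and 80.6 in SLA pools. SLA held both the lowest and the highest pool, and the difference was 0.12 ± 0.48. S94371_at read 30.5, 35.8 and 94.3 in SHA pools, against 11.1, 38.3 and 42.5 in SLA pools. Its difference of 0.84 ± 0.77 came mostly from 1 high SHA pool and 1 low SLA pool, and was 0.22 without SLA pool 1. S94371_g_at, named for the same transcript sequence, was not tested for its low signal and read 7.9, 15.3 and 12.3 in SHA pools and 13.9, 29.4 and 12.7 in SLA pools. The first SHA value lies under 8.9, the floor to which low values were set, and the 2 probe sets of that sequence correlated at r = -0.0059, so no single direction can be given for Gria4.

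**Figure D2:**
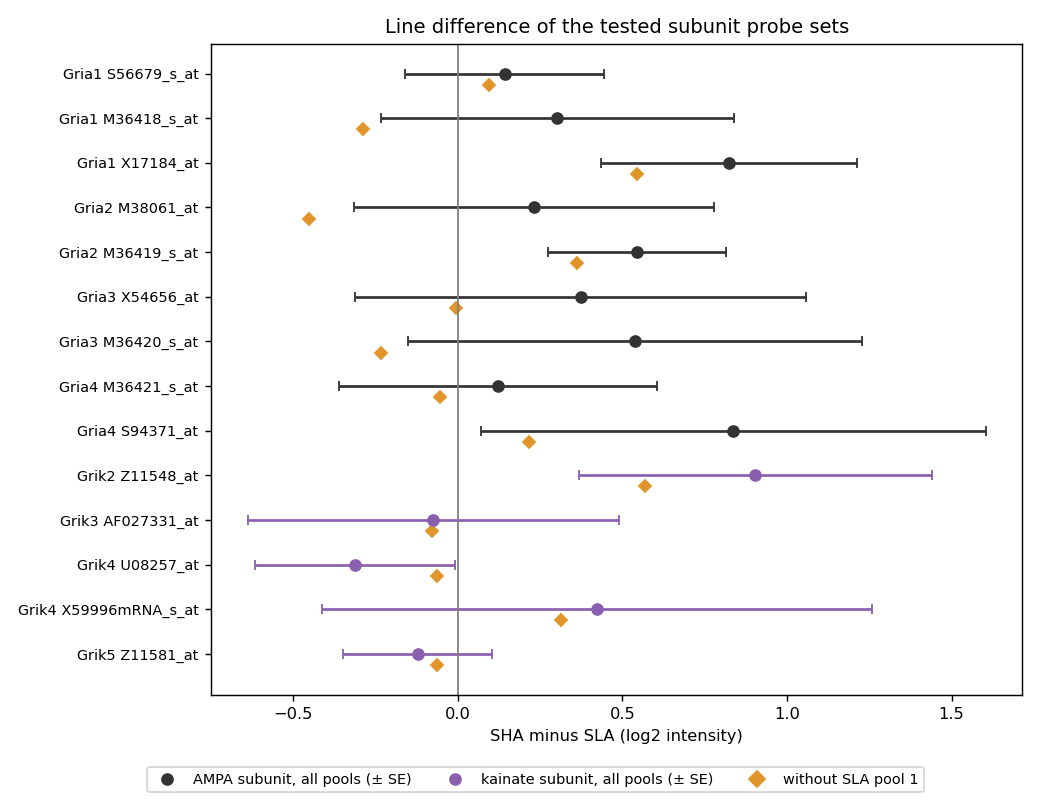
SHA minus SLA difference in log2 intensity of the 14 subunit probe sets tested, with standard errors, for AMPA (black) and kainate (purple) subunits; orange diamonds give the difference without SLA pool 1. All 9 AMPA points lie above 0, and 5 of them lie below 0 without SLA pool 1, among them Gria1 on M36418_s_at at -0.29 and Gria2 on M38061_at at -0.45.

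Among the kainate subunits that form channels alone, Grik2 (GluK2), the main one of hippocampal principal cells, gave the largest difference of the 14 probe sets tested. Z11548_at read 106.1, 164.1 and 122.5 in SHA pools, against 43.3, 149.1 and 50.5 in SLA pools. SLA pools 1 and 3 lay below every SHA pool, and SLA pool 2 lay above 2 of them. The difference was 0.90 ± 0.54 (limma, unadjusted p = 0.12), or 1.87-fold with a 95% interval of 0.811 to 4.31. It was 0.57 without SLA pool 1 and 1.46 without SLA pool 2.

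Grik1 (GluK1), typical of hippocampal interneurons, was not tested for its low signal. M83561_s_at read 4.0, 48.1 and 9.7 in SHA pools, against 13.3, 35.9 and 39.4 in SLA pools. SHA held both the highest and the lowest pool, the lowest of them under the floor of 8.9. Grik3 (GluK3) on AF027331_at read 49.3, 31.0 and 34.0 in SHA pools and 39.1, 33.7 and 46.0 in SLA pools. The values of the lines were interleaved, and the difference was -0.07 ± 0.56, with a 95% interval of -1.34 to 1.19.

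The Grik4 subunit (GluK4) is known for its place in CA3 pyramidal cells. U08257_at read 317.7, 275.5 and 232.8 in SHA pools, against 480.1, 300.4 and 270.6 in SLA pools, a difference of -0.31 ± 0.30. In each number the SHA pool was lower than the SLA pool, with SLA pool 1 far above the other pools, and without it the difference was -0.06. X59996mRNA_s_at read 36.7, 103.0 and 31.1 in SHA pools, against 31.4, 107.9 and 14.4 in SLA pools, a difference of 0.42 ± 0.84 that was -0.25 without SLA pool 3. The Grik4 probe sets correlated at r = -0.035 over the 6 pools and differed in sign, so no single direction can be given for this gene either.

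Grik5 (GluK5), which joins Grik2 in many brain kainate receptors, had the smallest standard error of the subunits. Z11581_at read 949.7, 1279.5 and 1077.0 in SHA pools, against 1291.1, 1241.1 and 1052.4 in SLA pools. The difference was -0.12 ± 0.23, or 0.919-fold with a 95% interval of 0.647 to 1.31, and ran from -0.24 without SHA pool 2 to -0.02 without SHA pool 1. SLA pool 1, the array on which most AMPA probe sets were lowest, gave the highest Grik5 value.

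The promoters of Grik2 and Grik5 are shown because Grik2 had the largest line difference of the subunits and Grik5 the brightest signal and the smallest standard error. The sequences are from RefSeq, build GRCr8, and run from 250 bases before to 50 after the gene's start, with GC boxes (GGGCGG, or CCGCCC on the other strand) in capitals.
Grik2, chr20:54415234-54415533, minus strand: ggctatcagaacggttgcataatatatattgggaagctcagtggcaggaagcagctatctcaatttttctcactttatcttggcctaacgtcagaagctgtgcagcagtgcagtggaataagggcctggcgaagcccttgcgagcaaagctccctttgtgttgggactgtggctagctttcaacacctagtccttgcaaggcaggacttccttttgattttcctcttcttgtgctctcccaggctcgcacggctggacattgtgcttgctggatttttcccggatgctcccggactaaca
Grik5, chr1:89794860-89795159, minus strand: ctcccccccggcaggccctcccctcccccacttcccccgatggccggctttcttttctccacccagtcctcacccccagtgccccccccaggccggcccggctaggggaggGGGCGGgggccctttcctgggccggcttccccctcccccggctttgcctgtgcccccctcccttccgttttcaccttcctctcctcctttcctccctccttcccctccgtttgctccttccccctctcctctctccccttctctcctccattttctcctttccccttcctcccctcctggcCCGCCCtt
The Grik5 window holds 2 matches and 69% G and C, the Grik2 window 0 matches and 50.3%. Of 33469 promoter windows of the same length in the table, 33.1% hold the motif on either strand, and the median share of G and C is 51.7%. Windows were found for 6 of the 9 subunit genes, and Grik3 was the other one with the motif. A match describes letters in this window, and the arrays did not measure binding there.

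The order of the probe sets by signal was broadly shared by the arrays. Signals of different probe sets also reflect how strongly each set binds, so the order is one of signal and not of transcript amount. By mean log2 intensity it ran from Grik5 (Z11581_at), Gria1 (M36418_s_at) and Gria2 (M36419_s_at) at the top to Grik1 (M83561_s_at) and Gria4 (S94371_g_at) at the bottom. The rank correlation over the 16 probe sets lay between 0.853 and 0.994 for the 15 pairs of arrays. Of the 15 pairs of neighbours in the mean order, 2 kept their order on all 6 arrays, namely Gria2 (M36419_s_at) above Gria1 (S56679_s_at) and Gria1 (X17184_at) above Gria3 (M36420_s_at). The other neighbours exchanged places on at least 1 array. Gria1 on M36418_s_at ranked 3, 1 and 1 in SHA pools 1, 2 and 3, against 4, 1 and 1 in SLA pools. Grik5 ranked 1, 2 and 2 in both lines. Grik4 on U08257_at ranked 4, 7 and 7 in SHA pools and 2, 7 and 6 in SLA pools.

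**Figure D3:**
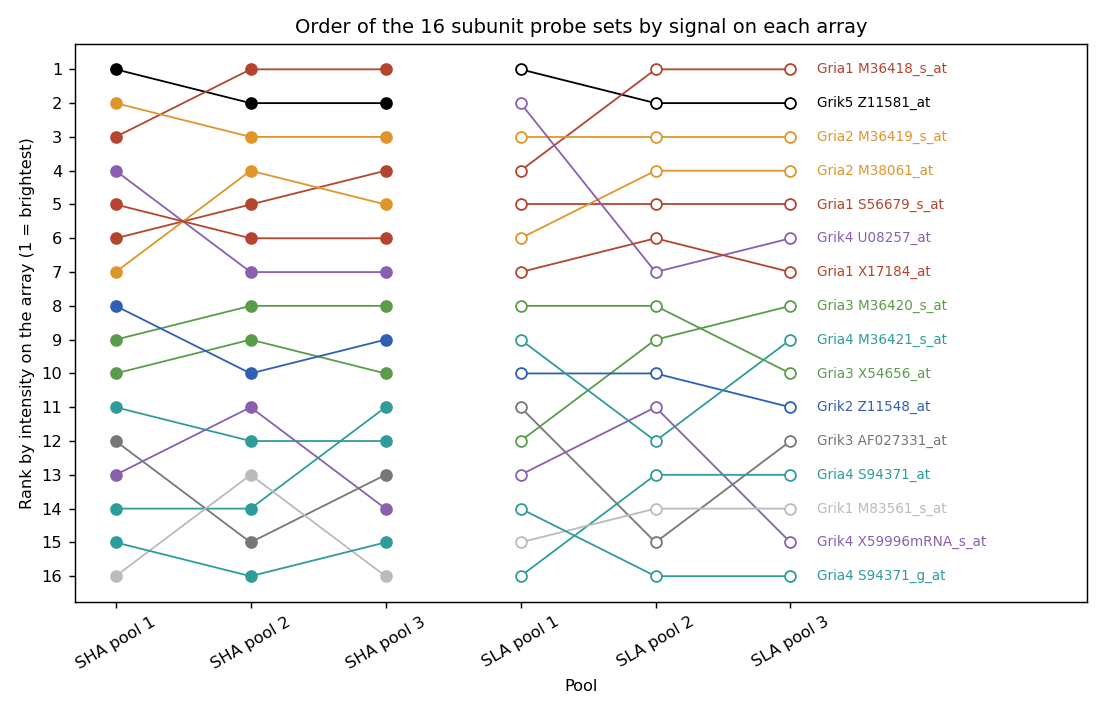
Rank by intensity (1 is the brightest) of the 16 subunit probe sets on each array, SHA pools on the left with filled points and SLA pools on the right with open points; lines only join the points of a probe set. Grik5 (black) holds rank 1 or 2 on all 6 arrays, and Gria1 on M36418_s_at is at rank 1 on the 4 arrays numbered 2 and 3.

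For many subunits the spread within a line was wider than the difference between lines. Within SHA the highest pool was between 1.22-fold (Gria4 on M36421_s_at) and 3.31-fold (Grik4 on X59996mRNA_s_at) the lowest over the 14 probe sets tested, and within SLA between 1.23-fold (Grik5) and 7.49-fold (Grik4 on X59996mRNA_s_at). The largest fitted fold between lines was 1.87. Over the 9 AMPA probe sets tested, the median difference within the numbers 1, 2 and 3 was 0.92, 0.02 and 0.38, against -0.09, -0.05 and 0.07 over all probe sets tested. Over the 5 kainate probe sets it was 0.23, -0.07 and 0.03. The median AMPA difference was thus small between the pools numbered 2, where single AMPA probe sets ran from -0.11 (Gria3 on X54656_at) to 0.33 (Gria2 on M36419_s_at). Of the 14 probe sets, 5 were higher in SHA within each of the 3 numbers, against 12.7% of all probe sets tested, and 1 was lower in each, against 15.2%. Those that were higher were Gria1 on M36418_s_at and X17184_at, Gria2 on M36419_s_at, Gria3 on M36420_s_at and Grik2, and the one that was lower was Grik4 on U08257_at.

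**Figure D4:**
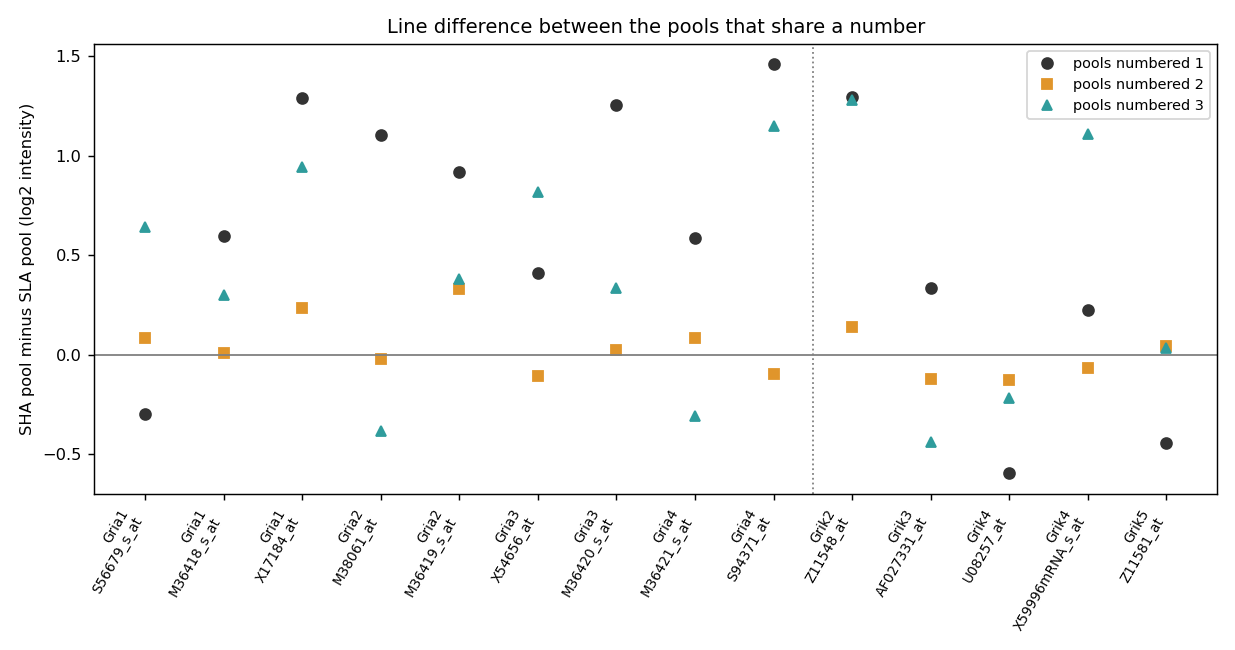
SHA minus SLA difference in log2 intensity between the pools that share the number 1, 2 or 3, for the 9 AMPA probe sets (left of the dotted line) and the 5 kainate probe sets tested (right). The differences within number 2 lie between -0.12 (Grik4 on U08257_at) and 0.33 (Gria2 on M36419_s_at), while those within number 1 reach 1.46 (Gria4 on S94371_at).

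Fitting the pool number as a block, a pairing that no label states, left the differences as they were and narrowed their errors. In that limma fit 3 of the 14 subunit probe sets had an unadjusted p under 0.05, against 5.26% of all probe sets tested. They were Gria2 on M36419_s_at (0.54 ± 0.17, unadjusted p = 0.013), Gria1 on X17184_at (0.82 ± 0.26, unadjusted p = 0.013) and Grik2 on Z11548_at (0.90 ± 0.38, unadjusted p = 0.045). None passed, with an adjusted p of 0.83 for each, and no probe set of the array passed in the blocked limma fit, where 345 had an unadjusted p under 0.05. Over the 14 probe sets the median difference was 0.34, and over all probe sets tested it was -0.01. Without SLA pool 1 the medians were -0.03 and -0.04, and without both pools numbered 1, which was tried only once the values were known, they were 0.27 over the same 14 probe sets and -0.0031 over all; 1 more subunit probe set passed the filter there, and the median with it was 0.18.

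Means over groups of probe sets on each array moved with the pool number too. The geometric mean over the 9 AMPA probe sets tested was 176, 305 and 259 in SHA pools 1, 2 and 3, against 100.2, 293 and 192 in SLA pools. That over the 5 kainate probe sets was 142, 179 and 127 in SHA pools and 127, 182 and 99.0 in SLA pools. The added bacterial and phage control probe sets had geometric means of 5458, 1121 and 2279 on the SHA arrays, against 12282, 640 and 1564 on the SLA arrays. SLA pool 1 thus had the lowest AMPA level and the highest control level, and the part of the control level in the AMPA values was not tested. The lowest of the 6 values fell on SLA pool 1 for 88.9% of the AMPA probe sets and for 24.5% of all probe sets tested. Markers of excitatory neurons, measured for 6 of 8 genes, summed to between 6436 and 9152 in SHA and between 5720 and 8097 in SLA, with 4 of 5 tested higher in SHA. Most of this sum was Nrgn, at 4682.1 to 7730.0 in SHA and 4273.0 to 7087.5 in SLA. Interneuron markers, measured for 9 of 9 genes, summed to between 4373 and 5701 in SHA and between 3450 and 4902 in SLA, with 8 of 9 higher. Over all probe sets tested, 48.1% lay higher in SHA. Some neuronal markers were lowest in SLA pool 1, as Gad1 at 217.1 and Calb1 at 169.7, while Pvalb was highest there at 361.5. Astrocyte markers had 5 of 6 tested higher (sums of 22536 to 25894 in SHA and 19846 to 23892 in SLA), and oligodendrocyte markers 5 of 7 tested lower (14754 to 21509 in SHA and 14539 to 26497 in SLA). Most of the oligodendrocyte sum was Mbp, at 8617.4 to 13918.8 in SHA and 8127.0 to 17566.5 in SLA. Microglial markers, measured for 5 of 6 genes, summed to between 443.5 and 468.5 in SHA and between 572 and 953 in SLA, without overlap. Most of this sum was C1qb, at 276.5 to 381.3 in SHA and 420.8 to 546.4 in SLA. Singly, the pools of C1qb and Cd74 did not overlap, against 5.66% of all probe sets tested. The 3 tested were lower in SHA. Of those tested, Cd74 (-2.67 ± 0.76) and C1qb (-0.61 ± 0.26) had an unadjusted p under 0.05 in limma, against 1.50% of all probe sets tested. Neither passed at an adjusted p under 0.05, and the pools of Aif1 overlapped. Csf1r and Itgam, too dim to be tested, went the other way with overlapping pools. Their means were 42.1 in SHA against 20.4 in SLA for Csf1r, and 20.9 against 15.2 for Itgam. No marker of these lists was under the floor on all 6 arrays, although Slc17a7, the vesicular glutamate transporter of excitatory neurons, was too dim to be tested, and the part of the markers in the subunit values was not tested.

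Of 50 genes listed for anchoring, trafficking, clustering, editing or signalling to these receptors, 31 had a probe set bright enough to be tested, and the brightest was taken for each. None passed in limma and none had an unadjusted p under 0.05, against 1.50% of all probe sets tested. In SHA 22 lay higher and 9 lower, where 48.1% of all probe sets tested lay higher. The median difference was 0.09, against -0.01 over all probe sets tested. The pools did not overlap for 2 of the 31, Grip2 and Ap2m1, against 5.66% of all probe sets tested. With the pool number as a block, 2 of the 31 had an unadjusted p under 0.05 in limma, Grip2 and Ppp3cb, against 5.26%.

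Grip2, a PDZ scaffold that binds the tails of the Gria2 and Gria3 subunits, had the smallest p of these genes. AF090113_g_at read 202.1, 200.0 and 299.1 in SHA pools, against 417.8, 315.5 and 313.1 in SLA pools. Every SHA pool was lower than every SLA pool, by a small margin for SHA pool 3, and the difference was -0.59 ± 0.29 (limma, unadjusted p = 0.069). Its other probe set, AF090113_at, had overlapping pools and differed by -0.91 ± 0.63.

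Stx4, a syntaxin of postsynaptic exocytosis, differed by -0.62 ± 0.67, and Rab5a, a GTPase of early endosomes, by -0.37 ± 0.42. Without SHA pool 1 both were close to 0, at 0.00046 and 0.02. Ppp3cb, a catalytic subunit of the phosphatase calcineurin, read 172.2, 219.8 and 233.7 in SHA pools, against 15.0, 204.0 and 126.1 in SLA pools. SLA pool 1 was far below the rest, and the difference of 1.51 ± 0.83 was 0.37 without it. Prkca, a protein kinase C, differed by 1.09 ± 0.63, and by 0.69 without SLA pool 1. Nptx2, a secreted pentraxin that clusters AMPA receptors, read 203.3, 328.9 and 288.6 in SHA pools, against 181.3, 215.7 and 189.0 in SLA pools. Only SHA pool 1 lay within the SLA range, with a difference of 0.46 ± 0.30 on S82649_s_at and 0.10 ± 0.47 on S82649_r_at.

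Further partners were read as examples of their roles. Nsf, an ATPase that binds the Gria2 subunit, differed by 0.35 ± 0.34. Cnih2, an auxiliary subunit of AMPA receptors, read 1261.4, 1252.2 and 1404.0 in SHA pools, against 1258.0, 1159.9 and 1352.8 in SLA pools, a difference of 0.06 ± 0.21. Adarb1, the editing enzyme of the Gria2 transcript, differed by 0.04 ± 0.55, and Dlg4, a postsynaptic scaffold, by -0.08 ± 0.38. Ap2m1, a subunit of the clathrin adaptor of endocytosis, read 3016.6, 2972.3 and 2999.0 in SHA pools, against 2964.1, 2796.3 and 2680.3 in SLA pools. Its pools were narrowly apart, with a difference of 0.09 ± 0.22. Camk2a, a kinase that phosphorylates Gria1, differed by 0.28 ± 0.40.

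**Figure D5:**
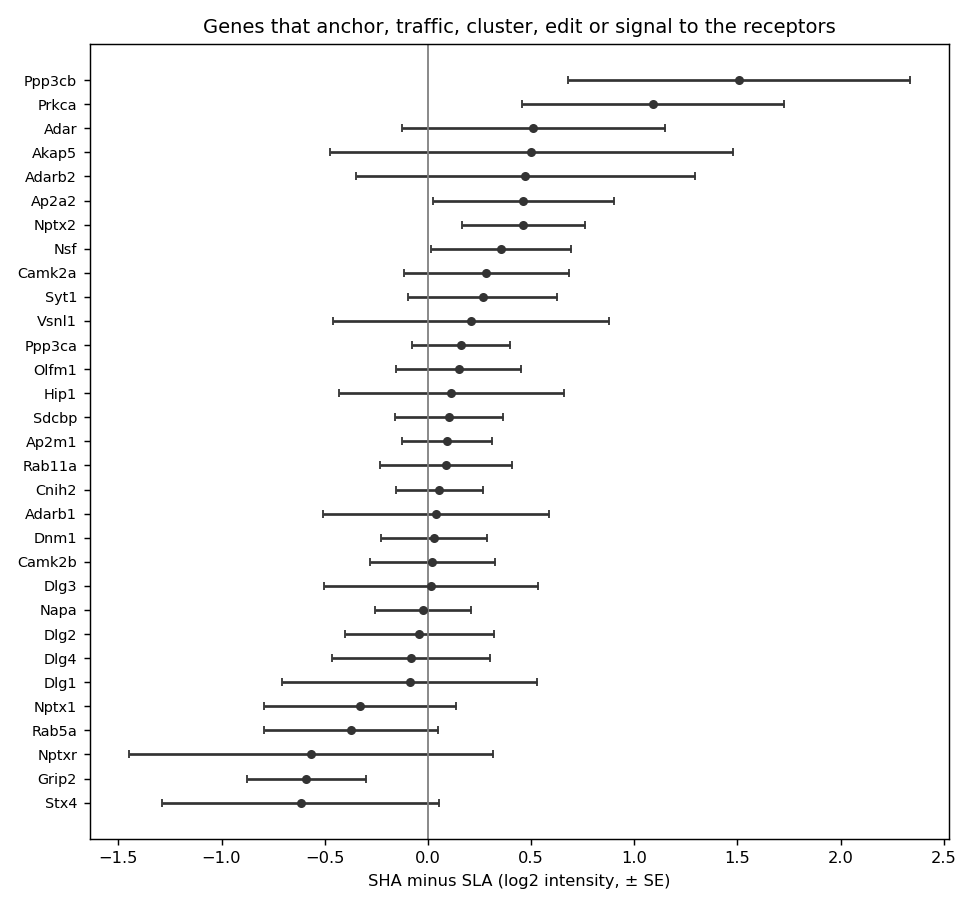
SHA minus SLA difference in log2 intensity, with standard errors, for the 31 partner genes tested, ordered by difference. The points run from -0.62 (Stx4) to 1.51 (Ppp3cb), and most standard error bars cross 0.

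The genes whose log2 values followed those of the brightest AMPA probe set most closely over the 6 pools, among 5368 probe sets with 1 gene name, were Rcn2, Trappc14, Tpm1, Prkcb and Slc24a2, with Pearson r between 0.992 and 0.997. Rcn2, a calcium-binding protein of the endoplasmic reticulum, read 178.1, 357.1 and 325.3 in SHA pools, against 132.0, 364.0 and 292.4 in SLA pools, with the same low values in pools 1 as Gria1 on M36418_s_at. For Grik5 they were Eif2b1, Rgs19, Ppm1b, Slc4a2 and Mapk6, with r between 0.967 and 0.994. Eif2b1, a subunit of a translation initiation factor, read 91.2, 154.7 and 108.6 in SHA pools, against 163.0, 143.6 and 107.3 in SLA pools. With 6 pools and so many probe sets, values of r this high are found by selection, and the probe sets compared share the same arrays and their scaling.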

How the data were processed

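Total RNA from 6 hippocampal pools was measured on 6 one-colour oligonucleotide arrays. The values the authors deposited are linear intensities, 1 for each probe set on each array. The 2%-trimmed mean was 250.3 to 250.4 on every array, so arrays had been scaled already. The software is not given in the sources used here. No label says that pools were separate cohorts, so p-values measure the spread between these pools.

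After leaving out 59 controls, values under 8.9 (the 10th percentile) were set to it and log2 was taken. The dimmest 25% of probe sets by mean log2 were left out, which left 6555. The floor held 4.95% to 15.9% of the values, depending on the array. Genes were named by the platform annotation, and a GRCr8 gene table brought symbols up to date by gene number (6985 of 7006 matched). The SHA and SLA pools were compared by limma 3.58.1 under R 4.3.3 (eBayes with an intensity trend, two-sided, Benjamini-Hochberg over all probe sets tested, threshold 0.05). The fit was tried on simulated data with independent noise, which held no effect shared by pool number. Intervals are 95%.

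All probe sets of the 9 subunit genes are named. Of the partner genes, those named are the 3 of smallest p in each direction and 6 examples by role. The members and lists were chosen with earlier results of these data known. Same-numbered pools' deviations from the line means correlated at 0.442, 0.675 and 0.127. Numbers were therefore taken to pair pools, but only in the within-number differences and the blocked fit. The main limma fit, its standard errors and the reported permutation test left the numbers out. No label states this pairing, and SHA pool 3 correlated with SLA pool 1 at 0.156. Arrays correlated at r between 0.846 and 0.973, so none duplicated another. Alternatives were other floors, filters and scalings, other prior variances, array weights, a block for pool number, and leaving out pools.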

Additional observations from a re-analysis of the deposited data

How the results depend on the processing

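Under 17 alternative settings the subunit probe sets gave 234 values, of which 217 kept their direction and their side of the threshold, 17 changed direction and 0 passed in limma. The counts of 0 subunit probe sets and 0 probe sets of the whole array past the threshold held in limma under these settings, while the count of the whole array at an unadjusted p under 0.05 was 98 in the reported setting and 57 to 354 over the others (57 without SLA pool 3, 354 with array weights). Of the subunit probe sets, 0 as reported had an unadjusted p under 0.05, a number that became 1 after quantile normalization (1.66% of all probe sets tested there), 3 with array weights (5.40%), 3 with the replicate block (5.26%) and 0 to 3 on leaving out single pools (3 without SLA pool 2, against 2.32%). The count of partner genes at such a p in limma was 1 with no filter (2.32% of all probe sets tested there) and 2 with the replicate block (5.26%). On leaving out single pools it was 0 to 1 (1 without SHA pool 3, against 2%, and 1 without SLA pool 2, against 2.32%). The number of AMPA probe sets higher in SHA, a count added once the values were known, was 4 to 9 of 9 on leaving out single pools (4 without SLA pool 1, 7 without SHA pool 2), 7 with array weights and 7 without both pools numbered 1. The median difference over the subunits ran from -0.03 without SLA pool 1 to 0.75 without SLA pool 2. With the replicate block it was 0.34, as reported.

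With array weights the difference was -0.21 for Gria4 on M36421_s_at and -0.25 for Gria2 on M38061_at. Without both pools numbered 1, which was tried only once the values were known, it was -0.11 and -0.20 for these probe sets, 0.039 for Grik5 and 0.10 for Rab5a. When 1 pool was left out, differences that changed direction ran from -0.29 to 0.74 for Gria1 on M36418_s_at, from -0.00055 to 0.41 on S56679_s_at, from -0.45 to 0.65 for Gria2 on M38061_at, from -0.23 to 1.16 for Gria3 on M36420_s_at, from -0.13 to 1.12 on X54656_at, from -0.053 to 0.36 for Gria4 on M36421_s_at, from -0.27 to 0.060 for Grik3, from -0.25 to 1.20 for Grik4 on X59996mRNA_s_at, from -1.25 to 0.00046 for Stx4, from -0.60 to 0.024 for Rab5a and from -0.11 to 0.16 for the Gria1 to Gria2 ratio. The cause was not tested beyond the pools left out. Differences that kept their direction ran from 0.54 to 1.24 for Gria1 on X17184_at, from 0.36 to 0.76 for Gria2 on M36419_s_at, from 0.57 to 1.46 for Grik2, from 0.22 to 1.18 for Gria4 on S94371_at, from -0.24 to -0.02 for Grik5 and from -0.48 to -0.06 for Grik4 on U08257_at. Low signals of Grik1 and S94371_g_at, each with 1 value under the floor, limit what can be said of them.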
